A study of Homo sapiens with 4 samples.

Results

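The genes described here build and control the DNA replication machinery of human cells, and 51 of them were read in CL1-5 and CL1-0. Both lines come from 1 human lung adenocarcinoma, and CL1-5 was selected from CL1-0 for invasiveness. The members were taken from a list of replication genes, and every probe set of the array whose only listed gene symbol was a member was kept. This gave 93 of 54675 probe sets, for 51 of 19775 genes. A probe set is a small group of oligonucleotides on an Affymetrix array that together read 1 transcript. A further 4 probe sets listed PRIM2 together with a second gene and were not used.

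The 4 groups were CL1-5 cells expressing AK4 shRNA, CL1-5 cells expressing a non-silencing shRNA, CL1-0 cells expressing an AK4 vector and CL1-0 cells expressing a control vector. All of them were stably transduced and had been selected with puromycin for 2 weeks. AK4 is a mitochondrial adenylate kinase, which moves phosphate between nucleotides. Each group was 1 array of 1 culture, so replicate error is unknown for every value below, no test was possible, and precision is limited by the number of arrays.

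Replication starts at origins, where the origin recognition complex (ORC) and the loading factors CDC6 and CDT1 place the MCM2-7 helicase on DNA in G1. In S phase the kinase CDC7 with its activator DBF4 lets CDC45 and the GINS complex join the helicase, and polymerases copy both strands behind it. The clamp PCNA holds polymerases on DNA, the RFC complex loads the clamp, and RPA covers single-stranded DNA. Many of these genes are known targets of the E2F transcription factors and are transcribed around the entry into S phase.

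Signals were scaled to a common trimmed mean, so they have no unit. A floor at a signal of 6.93 stood in for weak values. Each gene was read by its brightest probe set, and its further probe sets are numbered from 2 by falling mean level. By the brightest, all 51 members lay above the floor on all 4 arrays. A log2 ratio of 1 is a 2-fold difference. A gene counted as called where a comparison reached 2-fold, which is a fixed size and not a test.

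The labels were checked first. The 4 AK4 probe sets were lower with AK4 shRNA than with non-silencing shRNA in CL1-5, at log2 ratios from -1.25 to -0.88. The array labelled AK4 vector showed no higher AK4 in CL1-0, where the ratios ran from -0.25 to -0.05, so directions drawn from that array rest on its label alone. The labels call the cells type II alveolar cells. Of 10 type II markers found, 7 lay above the floor on all 4 arrays, and the phosphate transporter SLC34A2 was at the floor on all of them. LAMP3, a lysosomal type II marker, was at the floor on both CL1-5 arrays. In CL1-0 it had 160.1 with the AK4 vector and 210.0 with the control vector. LPCAT1 and NAPSA were higher in CL1-5, at log2 ratios of 1.79 and 1.05 between the non-silencing and control vector arrays. SFTPB, SFTPC, ABCA3, NKX2-1 and ETV5 were lower, from -0.978 for ABCA3 to -0.103 for SFTPC. The type II markers summed to 652 with AK4 shRNA and 646 with non-silencing shRNA in CL1-5. In CL1-0 they summed to 671 with the AK4 vector and 771 with the control vector. The summed signal of 5 epithelial markers was 1758 with AK4 shRNA and 1997 with non-silencing shRNA in CL1-5. It was 43.6 with the AK4 vector and 36.9 with the control vector in CL1-0. Most of the CL1-5 sum came from the keratin gene KRT18 and the rest mainly from KRT8. KRT19 was near the floor in CL1-5, at 7.02 with AK4 shRNA and 8.63 with non-silencing shRNA, and under it in CL1-0. EPCAM and CDH1 went the other way, above the floor only with the AK4 vector in CL1-0, at 9.46 and 9.81. The beta-actin 3' to 5' ratio, which grows with RNA degradation, was 1.61 with AK4 shRNA and 1.34 with non-silencing shRNA in CL1-5, against 6.54 with the AK4 vector and 6.04 with the control vector in CL1-0. The GAPDH ratio of the same kind differed less, at 1.07 and 1.04 in the CL1-5 cells, against 1.54 and 1.25 in the CL1-0 cells. Summed signals over the 4 arrays were 19.0 to 24.3 for the 4 leukocyte markers found and 87.5 to 125 for 6 fibroblast markers. For 4 endothelial markers they were 72.4 and 64.9 in CL1-5, against 23.4 and 25.2 in CL1-0. PTPRC and LYZ of the first list, COL3A1 and LUM of the second and CDH5 and KDR of the third were at the floor on all 4 arrays, while CD3E, COL1A1, DCN and VWF were above it on all 4. PECAM1, an endothelial marker, had 54.0 with AK4 shRNA and 45.1 with non-silencing shRNA in CL1-5, and in CL1-0 it was under the floor with the AK4 vector and at 7.12 with the control vector.

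The comparison of the lines asked how the replication genes differ between the cells in which AK4 was altered. Replication genes were mostly higher on the CL1-5 arrays. Both CL1-5 cultures expressed an shRNA and both CL1-0 cultures an AK4 or control vector. Line and type of construct therefore cannot be told apart in either pair of arrays. Between the CL1-5 non-silencing and CL1-0 control vector arrays, 30 of 51 members (58.8%) were at least 2-fold higher, against 17.1% of all 15970 measured genes, and 1 member was at least 2-fold lower, against 14.2% of genes. The members' median log2 ratio was 1.16, and that of all measured genes was 0.13. The other pair of arrays, CL1-5 with AK4 shRNA over CL1-0 labelled AK4 vector, shares no array with the first. In it 24 members were at least 2-fold higher, against 14.7% of 15821 genes, 1 was lower, against 14.8%, and the median was 0.98. In both pairs 21 members were at least 2-fold higher, against 12.2% of the 15530 genes measured in both. Both CL1-5 arrays lay above both CL1-0 arrays for 42 members, where this held for 43.2% of genes, and below both for 7 members, where it held for 34% of genes. In bulk RNA a larger share of cells in S phase and more RNA per cell cannot be told apart.

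**Figure D1:**
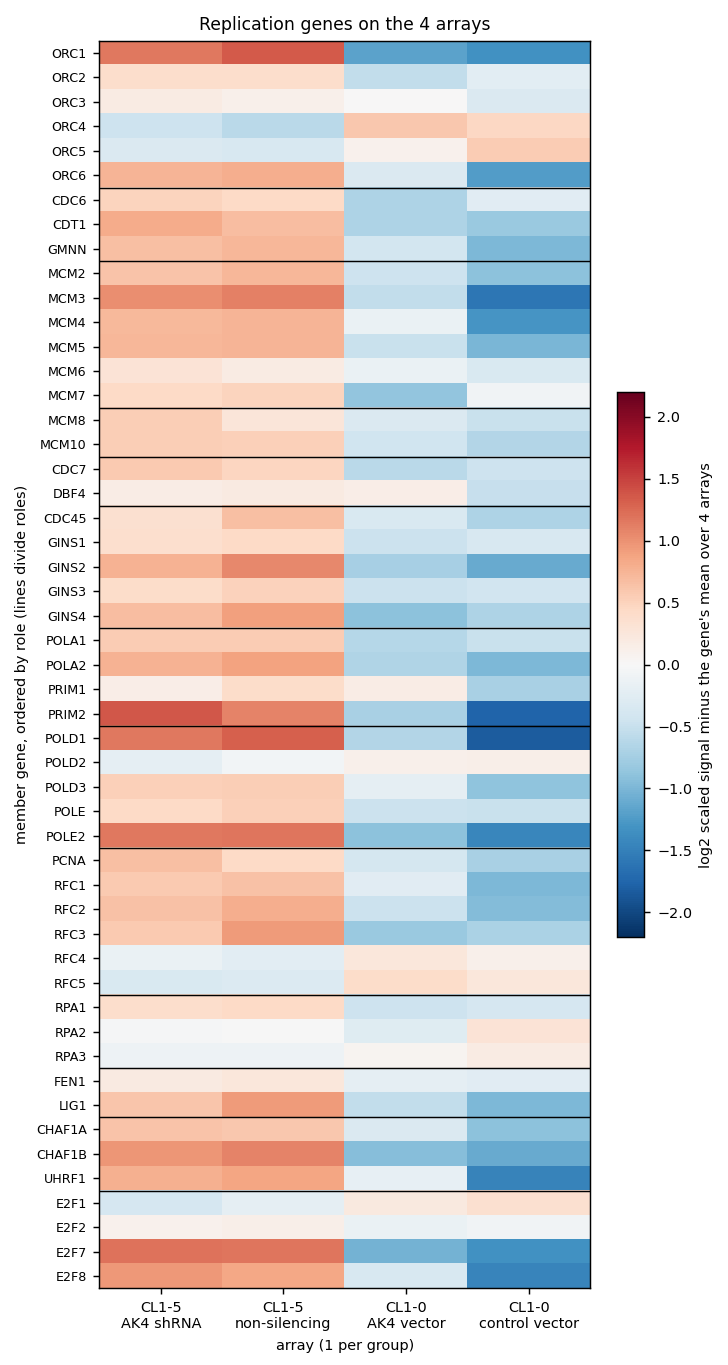
The 51 members (rows, by role) on the 4 arrays (columns, 1 array each), as log2 scaled signal minus the gene's own mean over the 4 arrays. Most rows are red on both CL1-5 arrays and blue on both CL1-0 arrays, with ORC4, ORC5, POLD2, RFC4, RFC5, RPA3 and E2F1 the other way round.

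Genes that mark dividing cells differed in the same direction between the lines. MKI67, a nuclear protein of cycling cells, had signals of 263 with AK4 shRNA and 255 with non-silencing shRNA in CL1-5, against 22.9 with the AK4 vector and 15.0 with the control vector in CL1-0. The mitotic cyclin gene CCNB1 had 1258 and 1228 in the same CL1-5 cells, against 539.5 and 261 in the same CL1-0 cells. The part of cell division rate and of the beta-actin and GAPDH 3' to 5' ratios in the line difference was not tested.

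The subunits of ORC did not move as a block. ORC1, the ATPase subunit that is known to be cell cycle regulated in human cells, had 104 with AK4 shRNA and 119 with non-silencing shRNA in CL1-5, against 20.6 with the AK4 vector and 18.5 with the control vector in CL1-0. Its log2 ratio between the lines was 2.68 in the first pair and 2.34 in the second. ORC6, the smallest subunit, had 354 and 370 in the CL1-5 cells, against 169 with the AK4 vector and 90.4 with the control vector, for ratios of 2.03 and 1.06. ORC1 and ORC6 were the members of the complex at least 2-fold higher in both pairs.

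ORC2 and ORC3, which belong to the core of the complex, were higher in CL1-5 by less than 2-fold, at 0.60 and 0.43 in the first pair and 0.93 and 0.17 in the second. ORC4, another core subunit, was the only member at least 2-fold lower. It had 96.1 with AK4 shRNA and 87.7 with non-silencing shRNA in CL1-5, against 198 with the AK4 vector and 180.5 with the control vector in CL1-0, at log2 ratios of -1.04 and -1.05. Its probe set 2 gave -0.35 and 0.24. ORC5 had 179 and 175 in the CL1-5 cells, against 239 with the AK4 vector and 330 with the control vector, at -0.91 and -0.42. Its probe set 2 had the opposite sign, at 0.85 and 0.58.

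The licensing factors were higher in CL1-5. CDT1 had 177 with AK4 shRNA and 160 with non-silencing shRNA, against 62.4 with the AK4 vector and 56.7 with the control vector, which is 2.82-fold in the first pair and 2.83-fold in the second. GMNN encodes geminin, the protein that binds and inhibits CDT1. It had 799.9 and 840.4 in the CL1-5 cells, against 385 with the AK4 vector and 257 with the control vector, at 1.71 and 1.06. CDC6, an ATPase that loads the helicase with CDT1, was higher by 0.68 in the first pair and 1.18 in the second, and its probe set 2 by 1.06 and 0.98. The loading factors and their inhibitor thus lay on the same side.

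All 6 subunits of the MCM2-7 helicase had a ratio above 0 between the lines, with a median of 1.69 in the first pair and 1.15 in the second, and 4 passed 2-fold in each. MCM3 stood highest in both. It had 478 with AK4 shRNA and 511 with non-silencing shRNA in CL1-5, against 163 with the AK4 vector and 78.4 with the control vector in CL1-0, or 2.70 and 1.56. MCM2 had 332 with AK4 shRNA and 360.2 with non-silencing shRNA, against 158 with the AK4 vector and 116 with the control vector, at 1.63 and 1.08. MCM5 had 484 and 490 in the CL1-5 cells, against 207 and 146 in CL1-0, at 1.75 and 1.23. For these subunits the CL1-0 array labelled AK4 vector lay between the CL1-0 control vector array and the CL1-5 arrays.

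MCM4 was read by 5 probe sets, all above the floor on every array and all higher in CL1-5. Their log2 ratios were 1.02 to 4.15 in the first pair and 0.52 to 3.52 in the second. The brightest had 291 with AK4 shRNA and 298 with non-silencing shRNA, against 159.9 with the AK4 vector and 71.9 with the control vector. MCM6 differed less, at 0.51 and 0.45, and had the signals 611 and 557 in the CL1-5 cells, against 448 and 391 in the CL1-0 cells. MCM7 had 516 and 533 in the CL1-5 cells, against 209 with the AK4 vector and 359.96 with the control vector, which is 1.48-fold and 2.47-fold. Its probe set 2 gave -0.52 and 0.18, so the side of MCM7 in the first pair depends on the probe set.

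MCM8, a helicase of homologous recombination, was higher in CL1-5 by 0.76 and 0.86, and by 2.18 and 2.24 by its probe set 2. MCM10, which takes part in starting the assembled helicase, gave 1.16 and 0.98 by its brightest probe set. Its probe sets 2 and 3 gave -0.60 and -0.39 in the first pair and -1.22 and -1.16 in the second. MCM10 therefore has no settled direction between the lines. The kinase gene CDC7 was higher by 0.93 and 1.17. Its activator DBF4 was higher by 0.70 in the first pair but by 0.03 in the second, where its signals were 265 with AK4 shRNA and 260 with the AK4 vector.

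CDC45 and all 4 GINS genes, whose products complete the active helicase, had ratios above 0 in both pairs. GINS2 had 224 with AK4 shRNA and 274 with non-silencing shRNA in CL1-5, against 79.1 with the AK4 vector and 60.8 with the control vector in CL1-0, which is 4.51-fold and 2.83-fold. GINS4 had 90.5 and 106 in the CL1-5 cells, against 30.2 and 35.4 in the CL1-0 cells, a ratio of 1.58 in each pair. GINS1 and GINS3 stayed below 2-fold by their brightest probe sets, between 0.80 and 0.92 over both pairs. The GINS3 probe set 2 was past 2-fold, at 2.04 and 2.23. CDC45 was at 1.33 and 0.69. The dimmest GINS2 probe set was at -0.11 and 0.15, and 2 of the 4 GINS4 probe sets were at the floor on all arrays.

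Among the polymerases, POLD1 showed the largest ratio of all members in the first pair. It encodes the catalytic subunit of polymerase delta and had 175 with AK4 shRNA and 196 with non-silencing shRNA in CL1-5, against 50.2 with the AK4 vector and 22.2 with the control vector in CL1-0. The log2 ratios were 3.14, or 8.85-fold, and 1.80. POLD2, the second subunit of the same enzyme, was on the other side with 286 and 315 in the CL1-5 cells, against 355 and 360.5 in the CL1-0 cells, at -0.20 and -0.31. POLD3, a further subunit, was at 1.43 and 0.72, and its probe set 2 at 0.62 and 0.53. Subunits of polymerase delta thus differed among themselves.

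POLE, the catalytic subunit of polymerase epsilon, was at 1.02 and 0.91. Its partner POLE2 had 211 with AK4 shRNA and 213 with non-silencing shRNA, against 50.1 with the AK4 vector and 34.6 with the control vector, at 2.62 and 2.08. Polymerase alpha and primase start each new strand. All 4 of their genes passed 2-fold in CL1-5 over CL1-0 in the first pair, and 3 in the second. PRIM2, the large primase subunit, had 99.6 and 81.8 in the CL1-5 cells, against 23.5 and 11.4 in the CL1-0 cells, at 2.85 and 2.09. POLA2 was at 1.88 and 1.42 and POLA1 at 1.05 and 1.19.

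PRIM1, the catalytic primase subunit, was the exception. It had 169 with AK4 shRNA and 203 with non-silencing shRNA in CL1-5, against 171 with the AK4 vector and 92.7 with the control vector in CL1-0. Its ratio was 1.13 in the first pair and -0.02 in the second, so its arrays overlapped between the lines.

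The clamp gene PCNA had 1245 with AK4 shRNA and 1068 with non-silencing shRNA, against 604 with the AK4 vector and 477 with the control vector, at 1.16 and 1.04. The subunits of the clamp loader were split. RFC2 was at 1.75 and 1.11 and its probe set 2 at 1.45 and 0.89. RFC1, the large subunit, was at 1.64 and 0.83 by its brightest probe set, but at 0.23 and 0.38 by probe set 2. RFC4 had 317 and 301 in the CL1-5 cells, against 419 and 382 in the CL1-0 cells, at -0.34 and -0.40.

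RFC3 and RFC5 differed most between their own probe sets. RFC3 was at 1.62 and 1.40 by its brightest probe set, at 4.12 and 3.29 by probe set 2, and at -0.10 and -0.53 by probe set 3. RFC5 was at -0.54 and -0.75 by its brightest, at 1.05 and 0.49 by probe set 2, and at 3.10 and 2.60 by probe set 3. Where these probe sets lie in the transcripts was not looked up. A probe set far from the 3' end loses signal in degraded RNA. The beta-actin and GAPDH 3' to 5' ratios given above differed between the lines as well, and their part was not tested.

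**Figure D2:**
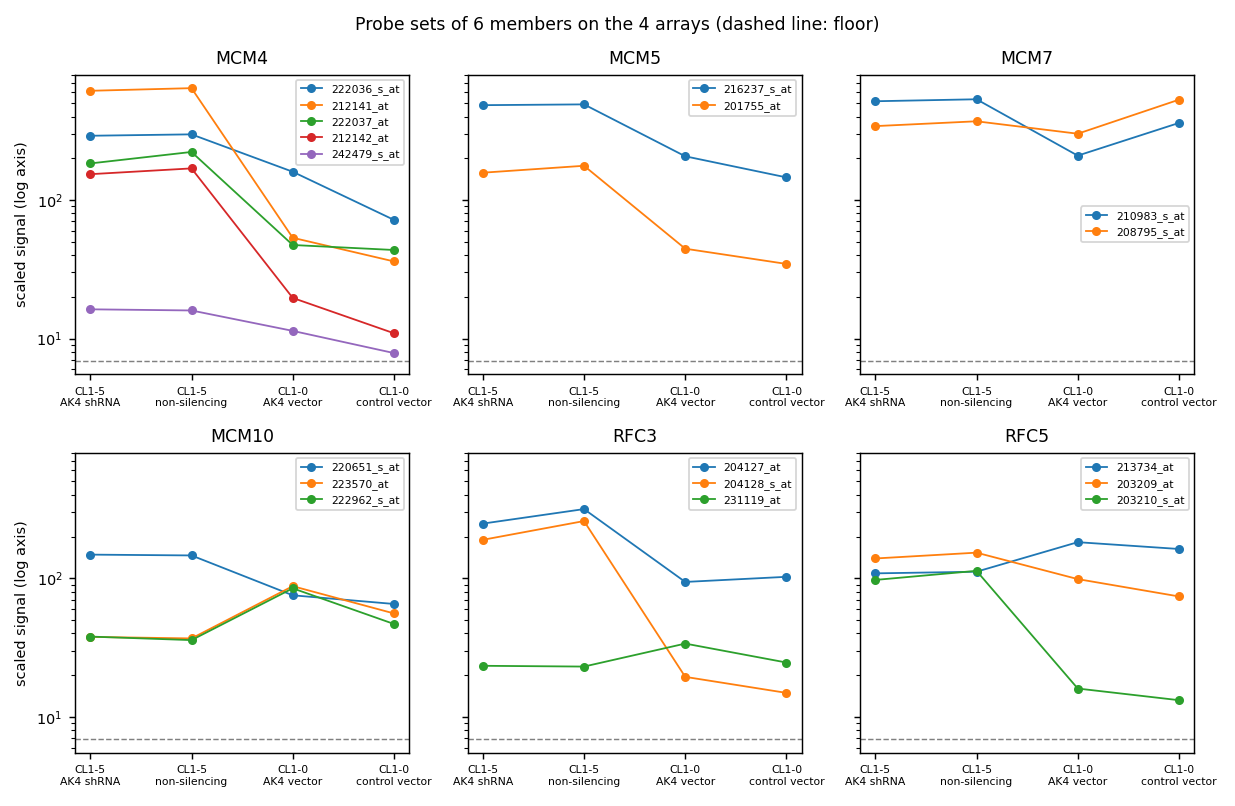
Scaled signal (log axis, dashed line at the floor of 6.93) of each probe set of 6 members on the 4 arrays, 1 line per probe set. All lines of MCM4 and MCM5 are higher on the CL1-5 arrays, while MCM7, MCM10, RFC3 and RFC5 hold probe sets of both directions between the CL1-5 non-silencing and CL1-0 control vector arrays.

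In the first pair 24 members had several probe sets that cleared the floor on both arrays, of which 16 agreed in sign over all of them. Of 13 called members among them, CDT1, MCM4, MCM5, RFC2 and CHAF1A had every such probe set past 2-fold. Within a gene, log2 ratios of its probe sets varied with a pooled SD of 1.06 for the members and 0.85 for all genes. Different transcripts add to this SD, which does not stand for replicate error.

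The 3 genes of RPA, the single-strand binding complex, stayed below 2-fold by their brightest probe sets. RPA1 was higher in CL1-5 by 0.81 and 0.84, with 675 and 698 in the CL1-5 cells, against 377 and 397 in the CL1-0 cells. Its probe set 2 was past 2-fold, at 1.56 and 1.54. RPA3 was at -0.29 and -0.18. RPA2 was at -0.30 and 0.25, and its arrays overlapped between the lines. Of the genes that finish the lagging strand, the ligase LIG1 had 145 with AK4 shRNA and 182 with non-silencing shRNA, against 65.3 with the AK4 vector and 48.1 with the control vector, at 1.92 and 1.15. The flap endonuclease FEN1 was at 0.49 and 0.40 by its brightest probe set and at 2.16 and 1.97 by probe set 2.

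The genes that rebuild chromatin behind the fork were higher in CL1-5. UHRF1, which brings maintenance DNA methylation to new DNA, had 421 with AK4 shRNA and 445 with non-silencing shRNA in CL1-5, against 214 with the AK4 vector and 88.0 with the control vector in CL1-0, at 2.34 and 0.98. CHAF1A and CHAF1B are subunits of chromatin assembly factor 1, a histone chaperone. CHAF1B was at 2.21 and 1.91, with 105 and 114 in the CL1-5 cells, against 27.9 and 24.8 in the CL1-0 cells. CHAF1A was 2.82-fold and 1.92-fold higher.

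The E2F factors differed among themselves. E2F7 and E2F8, the atypical E2Fs that repress E2F targets, were higher in CL1-5. E2F7 had 113 with AK4 shRNA and 112 with non-silencing shRNA, against 23.8 with the AK4 vector and 19.5 with the control vector, at 2.52 and 2.24. E2F8 had 93.7 and 87.7 in the CL1-5 cells, against 38.2 and 17.8 in the CL1-0 cells, at 2.30 and 1.29. The activator E2F2 differed little, at 0.20 and 0.25 by its brightest probe set and at -0.21 and 0.33 by probe set 2. The activator E2F1 had 64.2 and 71.6 in the CL1-5 cells, against 95.5 and 106 in the CL1-0 cells, at -0.57 in each pair. Its probe set 2 was at 0.99 and 0.77, so the side of E2F1 is not settled either.

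**Figure D3:**
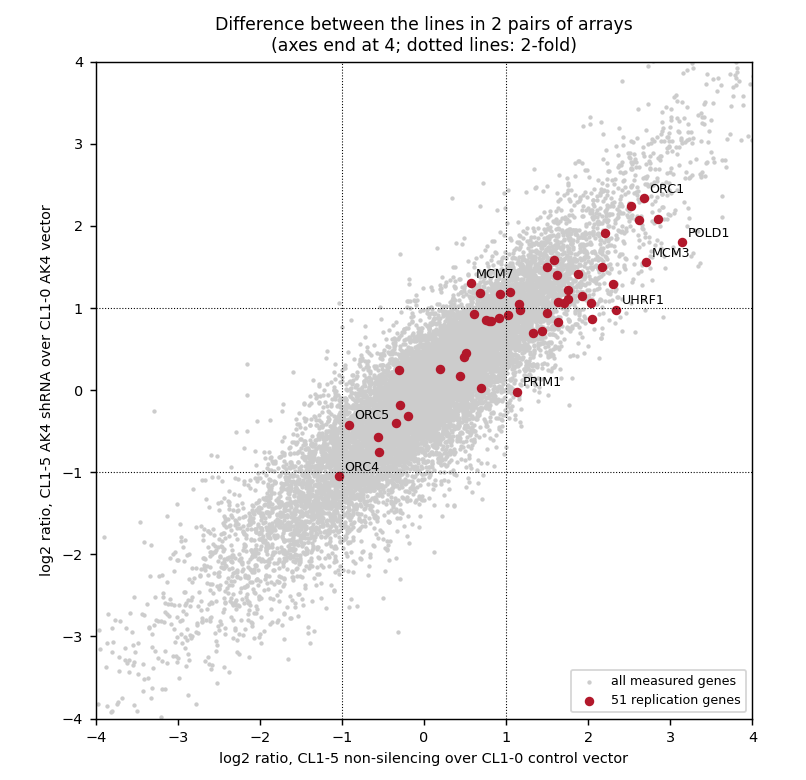
Log2 ratio of CL1-5 over CL1-0 in both pairs of arrays that share no array, for the members (red) and all 15530 genes measured in both (grey, of which 253 lie outside the axes). Most members lie right of and above 0, with 21 past 2-fold in both pairs, while ORC4 is past 2-fold on the low side in both and PRIM1 lies at 1.13 on the horizontal and -0.02 on the vertical axis.

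Promoter sequences were read because these genes are known as E2F targets. RefSeq promoter windows of 300 bases (GRCh38.p14, 250 before to 50 after the start) were matched for 44 of the 51 members by symbol. MCM4, MCM5, GINS4, POLD3, RPA2, RPA3 and E2F8 had no entry. Only 1 window was kept per symbol, so other starts of a gene were not searched. The strings TTTCCCGC, TTTCGCGC, TTTGCCGC and TTTGGCGC, which are forms of the E2F site, were searched on both strands, and a base shared by overlapping matches was counted in each. At least 1 was present in 21 of the 44 windows (47.7%), against 3.33% of 27305 windows of all genes. CCAAT, the NF-Y motif, was present in 25 of the 44 windows (56.8%), against 35.7% of all. For other genes of the pathway, taken from a second list described below, 43 windows were matched. Of these, 9 (20.9%) held an E2F string and 21 (48.8%) held CCAAT, so neither motif is particular to the members. A match is a run of letters and not a shown binding site. The 21 members with a match had a median log2 ratio of 1.05 in the first pair of arrays and 1.08 in the second, and the 23 without had 1.16 and 0.93. The order of these medians differed between the pairs.

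The windows below belong to the members with an E2F string that had the largest ratios in the first pair of arrays. POLD1, PRIM2, ORC1 and E2F7 had ratios above that of UHRF1 in that pair, and their windows held no E2F string. Capitals mark the matches, and positions count from 0 at the start. MCM3 (chr6:52284693-52284992, minus strand) holds them at -174 and -4, POLE2 (chr14:49688165-49688464, minus strand) at -5 and UHRF1 (chr19:4909251-4909550, plus strand) at -14.
MCM3: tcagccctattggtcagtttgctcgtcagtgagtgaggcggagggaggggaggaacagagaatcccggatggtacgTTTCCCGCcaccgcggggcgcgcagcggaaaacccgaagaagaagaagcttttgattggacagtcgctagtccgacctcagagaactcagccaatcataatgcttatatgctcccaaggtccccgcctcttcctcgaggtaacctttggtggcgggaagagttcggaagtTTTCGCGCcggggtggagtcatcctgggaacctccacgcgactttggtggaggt
POLE2: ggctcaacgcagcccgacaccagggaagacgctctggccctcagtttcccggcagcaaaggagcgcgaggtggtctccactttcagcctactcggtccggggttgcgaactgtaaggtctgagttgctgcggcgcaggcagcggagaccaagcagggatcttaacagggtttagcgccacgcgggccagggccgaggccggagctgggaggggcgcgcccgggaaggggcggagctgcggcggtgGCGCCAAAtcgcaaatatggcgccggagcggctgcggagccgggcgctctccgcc
UHRF1: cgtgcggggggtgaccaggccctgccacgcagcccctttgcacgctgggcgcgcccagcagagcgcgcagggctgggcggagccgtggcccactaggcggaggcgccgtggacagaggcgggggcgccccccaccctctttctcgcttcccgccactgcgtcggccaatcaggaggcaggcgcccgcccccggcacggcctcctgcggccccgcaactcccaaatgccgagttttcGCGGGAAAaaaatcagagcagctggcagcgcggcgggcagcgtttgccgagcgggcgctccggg

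Sites with 8 flanking bases follow for MCM2 and PCNA, past 2-fold in both pairs, and for MCM6, MCM7 and CDC6, which were not. They lie at chr3:127598405-127598428 for MCM2, chr2:135876580-135876603 for MCM6, chr7:100101391-100101414 for MCM7, chr17:40287878-40287901 for CDC6 and chr20:5126666-5126689 for PCNA. MCM6 holds 4 matches in its window and MCM2 2, in both cases as overlapping pairs on opposite strands. MCM7 holds 2 that do not overlap, at -187 and -9, and the latter is printed. MCM6 had a line ratio of 0.51 in the first pair, and PCNA 1.16.
MCM2: gaaccactTTTCGCGCGAAAcctg
MCM6: gctttgcaTTTGGCGCGAAAtccc
MCM7: gggcgacgTTTCGCGCcaatttcg
CDC6: cattcggaTTTGGCGCgagcgcgg
PCNA: cgtcagggGCGGGAAAaggcgtgc

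The comparison in CL1-0 asked which replication genes differ when an AK4 vector is expressed. On the array labelled AK4 vector 6 of 51 members (11.8%) were at least 2-fold higher than on the control vector array, against 3.22% of 14681 measured genes, and 0 were at least 2-fold lower, against 1.16%. The members' median log2 ratio was 0.20, and that of all measured genes was 0.05. Ratios above 0 were seen for 35 members, against 56.1% of all measured genes. The members' range ran from -0.78 for MCM7 to 1.28 for UHRF1. The CL1-0 control vector array enters this comparison and the first pair of the line comparison, so a low reading there raises both ratios.

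The 6 called members came from different parts of the machinery. UHRF1 had 214 with the AK4 vector and 88.0 with the control vector. POLD1 had 50.2 with the AK4 vector and 22.2 with the control vector, at 1.18. MCM4 had 159.9 with the AK4 vector and 71.9 with the control vector, at 1.15, and its other 4 probe sets lay between 0.12 and 0.85. E2F8 was at 1.10, with 38.2 with the AK4 vector and 17.8 with the control vector.

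MCM3 and PRIM2 were both at 1.05, just past 2-fold. MCM3 had 163 with the AK4 vector and 78.4 with the control vector, and PRIM2 had 23.5 with the AK4 vector and 11.4 with the control vector, which is not far above the floor. Just short of 2-fold were ORC6 at 0.91, PRIM1 at 0.89 and RFC1 at 0.74, though the RFC1 probe set 2 was at -0.16. Of the called members, UHRF1 alone stayed past 2-fold under all 8 other ways of processing, and after quantile normalization MCM4 and UHRF1 were the called members.

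Other members were lower with the AK4 vector without reaching 2-fold. MCM7 had 209 with the AK4 vector and 359.96 with the control vector, at -0.78, and its probe set 2 was at -0.82, so MCM7 stood apart from the other 5 helicase subunits, which were between 0.20 and 1.15. RPA2 was at -0.56, with 206 with the AK4 vector and 305 with the control vector. ORC5 was at -0.47, CDC6 at -0.44 and ORC2 at -0.32, though probe set 2 of ORC5 was at 0.33 and that of ORC2 at 0.70. All 3 RPA genes had ratios below 0, and RPA1 and RPA3 were at -0.08 and -0.11.

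By role the medians in CL1-0 ran from -0.11 for RPA to 0.61 for polymerase alpha and primase. Polymerases delta and epsilon were at 0.53, the MCM2-7 helicase at 0.47 and the genes of chromatin behind the fork at 0.58. CDC45 and GINS had a median of -0.06, with 2 of 5 above 0. For 24 members several probe sets cleared the floor on both CL1-0 arrays, and 15 of these members agreed in sign over all of them. The proliferation markers TOP2A, a topoisomerase of dividing cells, and CCNB1 were higher with the AK4 vector by 1.66 and 1.05, and MKI67 by 0.61. For beta-actin the 3' to 5' ratio was 6.54 with the AK4 vector and 6.04 with the control vector. The part of these in the result was not tested.

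The comparison in CL1-5 asked the same when AK4 is silenced. With AK4 shRNA 0 of 51 members were at least 2-fold higher, against 0.0914% of 15321 measured genes, and 0 were at least 2-fold lower, against 0.0131%. No member reached 1.5-fold either, where 133 of the 15321 genes were higher and 83 lower. The members' median log2 ratio was -0.04 and that of all measured genes 0.00. Of the members 34 were below 0 and 17 above, and of all measured genes 49.7% were above 0. Of the 51 members, 42 (82.4%) lay within 0.2 of 0, against 68.6% of all measured genes. The median size of the ratio was 0.08 for the members and 0.13 for all genes. Both CL1-5 arrays thus gave nearly the same reading of the replication genes, but with 1 array each the interval of any difference is unknown.

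The lowest ratios with AK4 shRNA belonged to RFC3 at -0.35, LIG1 at -0.33, CDC45 at -0.30 and GINS2 at -0.29. RFC3 had 248 with AK4 shRNA and 316 with non-silencing shRNA, and its probe sets 2 and 3 were at -0.45 and 0.02. The GINS3 probe set 2 was at 0.01, but by their brightest probe sets CDC45 and the 4 GINS genes were all below 0, with a median of -0.23. So were all 5 subunits of polymerases delta and epsilon by their brightest probe sets, between -0.16 and -0.01, while the POLD3 probe set 2 was at 0.35. By the brightest probe sets the highest ratios were those of PRIM2 and MCM8, both at 0.28, and of PCNA at 0.22. PCNA had 1245 with AK4 shRNA and 1068 with non-silencing shRNA. E2F1 was at -0.16 and its second probe set at -0.11, and the atypical E2F7 and E2F8 were at 0.01 and 0.09.

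**Figure D4:**
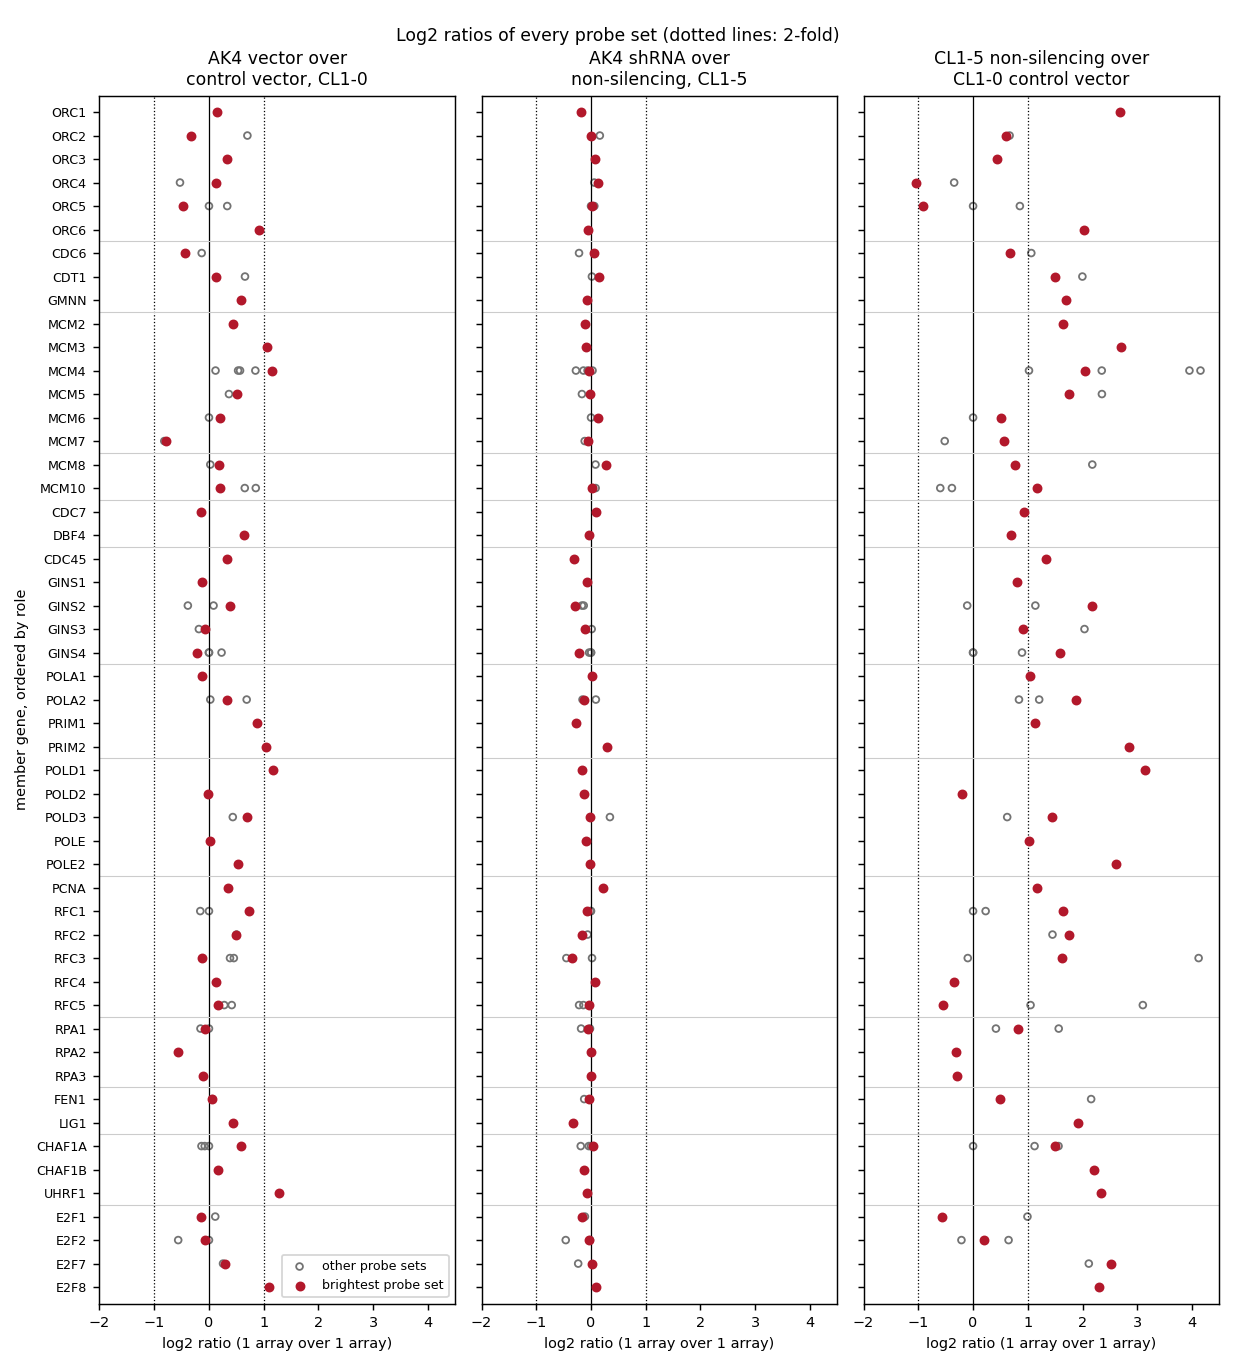
Log2 ratio of every member's brightest probe set (red) and other probe sets (open; those at the floor on both arrays are drawn at 0) in each of the 3 comparisons, with dotted lines at 2-fold. In CL1-0 UHRF1 is rightmost at 1.28, in CL1-5 all brightest probe sets lie between -0.35 and 0.28, and between the lines 30 of 51 lie right of 2-fold.

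Other genes of the pathway were read from a second list, with 52 of its 53 members found on the array. Between the CL1-5 non-silencing and CL1-0 control vector arrays 23 of 52 measured passed 2-fold on the high side, against 17.1% of all measured genes, and 5 on the low side, against 14.2%. Their median log2 ratio was 0.89. Among those above the floor on both arrays, the largest ratios were those of cyclin E2 (CCNE2), which drives S phase entry, at 3.38, TOP2A at 2.94, the nuclease-helicase DNA2 at 2.77 and cyclin A2 (CCNA2) at 2.42. CCNE2 had 196 with non-silencing shRNA in CL1-5, against 18.8 with the control vector in CL1-0. The 5 lower genes, named here after their values were seen, were E2F3, E2F5, E2F6, RB1 and the histone chaperone ASF1A, at -1.11, -2.19, -1.04, -1.48 and -1.49. In the second pair 18 of 52 passed 2-fold on the high side, against 14.7% of all measured genes. There 2 passed on the low side, against 14.8%, and the median was 0.68. E2F5 at -1.15 and ASF1A at -1.02 stayed past 2-fold, while E2F3 at -0.56, E2F6 at -0.62 and RB1 at -0.77 did not. All 5 genes found of deoxynucleotide supply (RRM1, RRM2, TYMS, TK1 and DUT) passed 2-fold on the high side in the first pair, and their median was 2.18. In the second pair 3 of them did, with a median of 1.47, while RRM1 was at 0.95 and DUT at 0.63.

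Of the second list, 50 genes were measured in CL1-0, and with the AK4 vector 5 of them passed 2-fold on the high side, against 3.22% of all measured genes, and 0 on the low side, against 1.16%. Their median was 0.17. They were CCNA2 at 1.68, TOP2A at 1.66, DNA2 at 1.42, the S phase entry gene FBXO5 at 1.09 and SKP2 at 1.07. SKP2, a ubiquitin ligase subunit, was named after its value was seen. In CL1-5 0 of 52 passed 2-fold in either direction with AK4 shRNA, against 0.0914% of all measured genes higher and 0.0131% lower. The median of the 52 was 0.02. The largest ratios were those of E2F5 at 0.54, MCM9 at 0.51, RBL2 at 0.48 and RB1 at 0.44. RB1 and RBL2 encode pocket proteins, which bind E2F factors and hold back S phase genes. RB1 had 170.0 with AK4 shRNA and 125 with non-silencing shRNA in CL1-5. Of the 9 other E2F, DP and pocket protein genes 7 had a ratio above 0, against 49.7% of all measured genes.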

How the data were processed

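RNA of 4 stably transduced cultures, 1 per group, was labelled from 6 ug of total RNA and hybridised to 1-colour Affymetrix arrays. The authors deposited linear intensity values, 1 for each probe set of an array. MAS5 is named in the processing, per the submitters' processing notes, while its version, scaling target and background correction are unstated there. The deposited columns shared no common scale, with medians of 15.3 (CL1-5, AK4 shRNA), 15.6 (CL1-5, non-silencing), 6.23 (CL1-0, AK4 vector) and 6.07 (CL1-0, control vector), and no detection calls were used.

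Each array was scaled to a common trimmed mean (2% off each end, without 62 control probe sets). Values under the 40th percentile of all scaled values were set to it, and log2 was taken. Of 54675 probe sets, 41097 had 1 gene symbol, 1801 had several and 11777 had none listed. Symbols were updated by gene identifier for 99.9% of the named ones. A gene was read by its probe set of highest mean log2 level, and counted as measured with at least 1 of the 2 arrays above the floor. Groups came from the genotype labels. No test was run, since each group had 1 array. The procedure was tested on simulated data. Python 3.11.15, numpy 2.4.6, pandas 2.3.3 and statsmodels 0.14.6 (loess) were used.

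All 51 members were named. Of the second pathway list, the 4 largest ratios per comparison among genes above the floor on both arrays were named. Members and lists were chosen with earlier results of these data known. Planned searches for PIP box and Walker A motifs in the proteins were not run, as no protein sequences were used here.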

Additional observations from a re-analysis of the deposited data

How the results depend on the processing

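Alternatives were quantile normalization, a common median, no scaling, a floor at the 60th percentile, no floor with log2(signal + 1), averaging all probe sets, no probe sets ending in _x_at or _s_at (40 members remain), loess, and a 1.5-fold call. Of 95 recomputed summaries, 82 kept their size (counts within 1.5 times, medians within 0.1). In CL1-0 the 6 members at least 2-fold higher became 2 after quantile normalization, against 333 of 15242 genes. At 1.5-fold 11 members were higher and 1 lower, against 1843 and 959 of 14681 genes. Between the lines the members' median of 1.16 was 0.67 with a common median, 2.03 with no scaling and 0.98 in the other pair of arrays, a choice made after seeing the data. The median of all genes moved as well, to -0.30 with a common median and 0.83 with no scaling. The members' median lay above that of all genes by 0.94 to 1.20 under every alternative that rescaled or reread the arrays. The 1 member at least 2-fold lower became 4 with a common median (ORC4, ORC5, RFC5 and E2F1) and 2 at 1.5-fold. Of all genes 3902 of 15938 and 3716 of 15970 were lower in these settings. The count became 0 with no scaling, with averaged probe sets or without _x_at and _s_at probe sets. There 771 of 16774, 1364 of 15977 and 1769 of 12963 genes were lower. Of the calls of all genes, 54.6% were higher in CL1-5, but 26.8% with a common median, 42.9% after quantile normalization, 41.2% after loess and 90.4% with no scaling. The 7 members lower on both CL1-5 arrays became 1 with no scaling and 4 with averaged probe sets. MCM10 reversed to -0.60 without _x_at and _s_at probe sets. Of the 30 members higher in CL1-5, 19 stayed past 2-fold under each alternative but the 1.5-fold call that measured them. In CL1-0 1 of 6, UHRF1, did so. In CL1-5 0 members were called under any of them, where 5 to 133 of all genes were higher and 1 to 83 lower.

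No paired analysis was possible because each group had 1 array and the labels give no replicate numbers. Signals near the floor, such as those of PRIM2 in CL1-0, limit their ratios.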

Other observations

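Some genes of the second pathway list, chosen after their values were seen, are given here. ASF1A, which hands histones to chromatin assembly factors, had signals of 274 with AK4 shRNA and 312 with non-silencing shRNA in CL1-5, against 553 with the AK4 vector and 877 with the control vector in CL1-0. Its paralog ASF1B had 180.1 and 190.0 in the CL1-5 cells, against 69.5 and 67.9 in the CL1-0 cells, so the paralogs lay on opposite sides of the line comparison, at log2 ratios of -1.49 and 1.48. CLSPN, the fork checkpoint mediator claspin, had 51.3 and 47.8 in the CL1-5 cells and was under the floor on both CL1-0 arrays. POLE3 and POLE4, the small subunits of polymerase epsilon, were at -0.33 and -0.72 with the AK4 vector, whereas POLE and POLE2 were at 0.02 and 0.53.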
